A study of Mus musculus with 2 samples.

Results

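Bile acid synthesis was followed through 10 enzyme genes in hepatocytes sorted for an active form of ezrin: Cyp7a1, Cyp8b1, Hsd3b7 and Akr1d1 of the classic pathway, Cyp27a1, Cyp7b1 and Cyp39a1 of the alternative pathways, and Slc27a5, Amacr and Baat of side chain processing and conjugation. Hsd3b7 and Akr1d1 also serve the alternative routes. The members were taken by gene symbol from probe sets annotated to a single gene, which gave 16 probe sets and 10 of 18193 genes on the array. RNA came from hepatocytes of male FVB mice of 6 to 8 weeks that had received a hydrodynamic injection into the tail vein (fast, high-volume delivery by which plasmid DNA enters hepatocytes) of 10 µg of the plasmid PT3EF5α EzrinT567D and 0.8 µg of the plasmid pCMV/SB in 2 ml of saline. Ezrin ties the cell membrane to the actin cytoskeleton, and T567D puts an acidic residue in place of the threonine that is phosphorylated when ezrin is active. Both groups came from injected mice: 1 array held cells sorted as GFP-negative (EzrinT567D negative) and 1 array held cells sorted as GFP-positive (EzrinT567D positive), GFP being the labels' sign of EzrinT567D, taken 1 week after injection according to the source names. The description fields instead name 2 months, and they name chow for negative but a fast food diet for positive cells, whereas the growth protocol names chow alone. Diet and sort group therefore cannot be told apart where the description holds, and bile acid enzymes are known to respond to diet. The labels state neither the number of mice nor whether RNA was pooled, nor whether 1 liver gave both fractions.

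Bile acids are made from cholesterol in hepatocytes and are the main route by which the body disposes of cholesterol. In the classic pathway the steroid ring is hydroxylated first, by Cyp7a1 in the rate-limiting step, and in the alternative pathways the side chain of cholesterol is oxidised first, as Cyp27a1 does. Both routes then share ring reduction, shortening of the side chain in peroxisomes, and coupling to taurine or glycine, and bile acids returning to the liver repress Cyp7a1 and Cyp8b1 through the nuclear receptor FXR (Nr1h4) and its target SHP (Nr0b2).

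A RefSeq promoter table (GRCm38.p6) held 4 of the 10 members (Cyp8b1, Hsd3b7, Akr1d1 and Cyp27a1), and in 2 of them the 250 bases before the transcript start lay wholly outside the annotated span of the gene. These 2, of Cyp8b1 and Hsd3b7, are shown for that reason, and the windows of Akr1d1 and Cyp27a1 are not. Capitals mark matches, on either strand, to CAAAGTCCA (a core site of HNF4A), CAAGGNCA (a site of the nuclear receptor LRH-1, Nr5a2), AGGTCA (a nuclear receptor half-site, which the LRH-1 site can contain) and TATAAA (the TATA box).
Cyp8b1, minus strand, chr9:121916306-121916555: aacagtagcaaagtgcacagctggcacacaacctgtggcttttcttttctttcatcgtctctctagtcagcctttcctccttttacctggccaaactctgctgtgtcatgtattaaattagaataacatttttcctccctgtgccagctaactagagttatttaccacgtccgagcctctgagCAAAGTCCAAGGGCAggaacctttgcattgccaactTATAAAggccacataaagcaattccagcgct
Hsd3b7, plus strand, chr7:127800359-127800608: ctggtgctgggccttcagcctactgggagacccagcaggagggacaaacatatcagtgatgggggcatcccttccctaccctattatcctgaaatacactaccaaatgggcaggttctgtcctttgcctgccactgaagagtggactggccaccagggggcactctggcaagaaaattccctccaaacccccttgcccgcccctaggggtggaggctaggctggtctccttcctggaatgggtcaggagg
The Cyp8b1 window held CAAAGTCCA from 67 to 59 bases and CAAGGNCA from 60 to 53 bases before the start, which overlap, and TATAAA from 31 to 26 bases before it. Of 32851 promoter windows of the same length, 0.384% held CAAAGTCCA, 5.53% CAAGGNCA, 14.0% AGGTCA and 12.4% TATAAA. No match to any of them was found in the Hsd3b7 window, which says only that these letters are not there, and the matches describe sequence and not binding. Of the windows not shown, that of Akr1d1 held 2 matches to AGGTCA and that of Cyp27a1 held none.

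Of the 10 enzymes, 1 read at least 2-fold higher in EzrinT567D-positive hepatocytes and 0 at least 2-fold lower, and at any size 4 read higher and 6 lower. The 1 was Cyp7a1, at 2.31-fold. The 4 classic pathway enzymes had a median log2 ratio of 0.34 (positive over negative), but 2 of them, Cyp8b1 and Akr1d1, lay within the spread between probe sets given with the units. Hsd3b7 (0.48) passed that spread by little at its SD of 0.42 over all genes with 2 probe sets, and by more at 0.33 over bright ones. The 3 alternative pathway enzymes (median -0.06) and the 3 side chain and conjugation enzymes (median -0.31) had small ratios in the brightest probe set of each gene, and the side of Cyp27a1 depended on the probe set and on scaling. No difference between pathway steps was tested. Among 10178 genes above a background floor in at least 1 array (set by receptor genes of the sense organs), 1.34% read at least 2-fold higher and 0.58% at least 2-fold lower, while 44.9% read higher and 46.5% lower at any size. Past a log2 ratio of 0.5, 1 member read higher and 0 lower, beside 9.26% and 5.99% of those genes. The median over the 10 members was -0.04, beside 0.00 over all genes, and it was 0.02 after quantile normalization and 0.03 after loess correction.

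Each group held 1 array, so the groups cannot be tested against each other and replicate error is unknown. The values are MAS5 signals, a linear intensity per probe set in which each array had been scaled to the same 2% trimmed mean of 500.0. The floor is the 95th percentile of 84 probe sets for odorant, pheromone, bitter taste and trace amine receptors, 252.7 (negative array) and 334.0 (positive array). The only spread at hand is that between probe sets of a gene on the same 2 arrays. In 3182 genes 2 or more probe sets exceeded both floors. The difference in log2 ratio between the 2 brightest had an SD of 0.42, and of 0.33 over the 1252 genes whose dimmer probe set read 1000 or more. This SD leaves out error that all probe sets of an array share. A single ratio set beside it is given a scale and is not tested. Bright genes read slightly lower throughout, with a median log2 ratio of -0.13 over 349 genes with a mean signal above 10000, against -0.05 over 3580 genes from 1000 to 10000 and 0.09 over 4433 genes up to 1000. Loess-corrected values, which remove this trend, are given beside the deposited ratios of the enzymes.

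**Figure D1:**
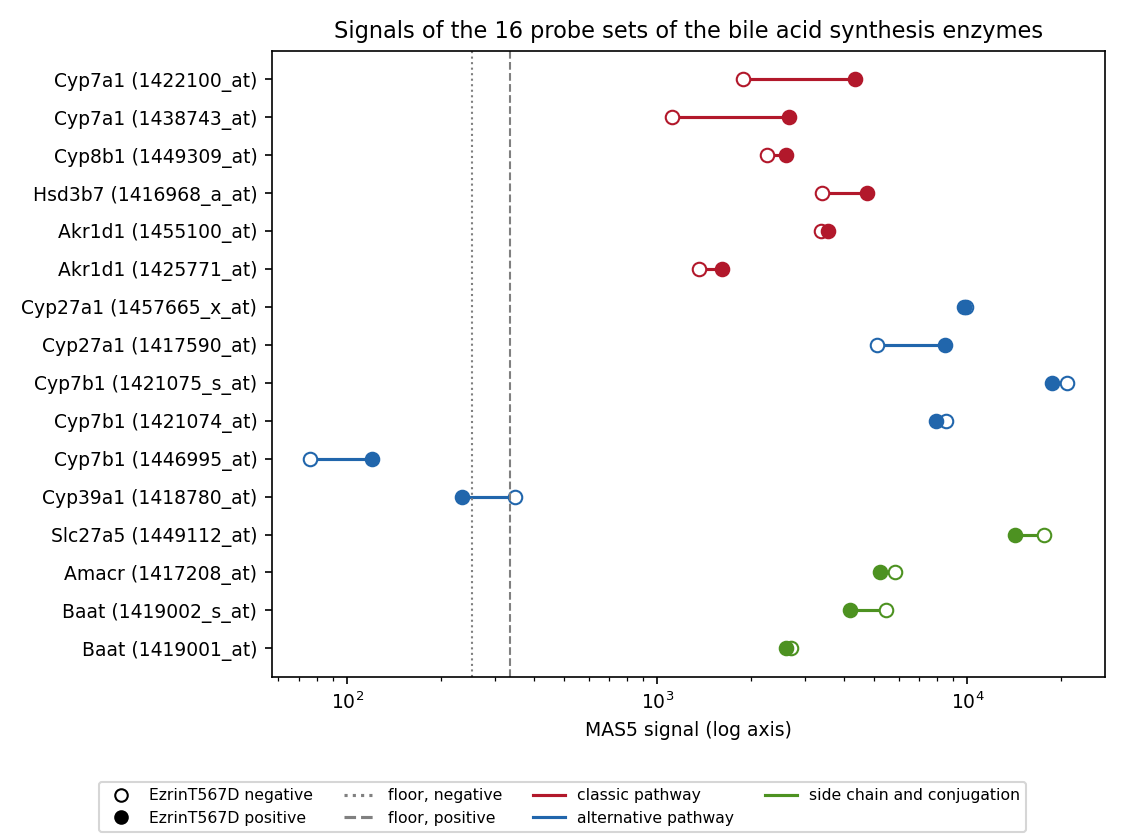
MAS5 signals (log axis) of the 16 probe sets of the 10 enzymes, 1 row per probe set, with open circles for the EzrinT567D-negative and filled circles for the EzrinT567D-positive array; vertical lines mark the floors of 252.7 and 334.0. Both Cyp7a1 probe sets lie more than 2-fold apart, those of Cyp7b1 above the floor nearly coincide, and Cyp39a1 lies at the floor.

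Cyp7a1, the rate-limiting cholesterol hydroxylase of the classic pathway, was measured by 2 probe sets. Probe set 1422100_at read 1884.1 in negative and 4344.0 in positive hepatocytes, a 2.31-fold higher signal (log2 ratio 1.21, or 1.27 after loess correction). Probe set 1438743_at read 1112.4 and 2665.1, a 2.40-fold higher signal (log2 ratio 1.26, or 1.29 after loess correction). The readings differed by 0.06 on the log2 scale, less than the SD of 0.42 between probe sets of a gene, and all 4 signals stood at least 4.40 times over the floor of their array. In the order of log2 ratios Cyp7a1 held rank 38 from the highest of 8362 genes above the floor in both arrays. A 2-fold higher reading in both of its 2 brightest probe sets was found for 10 of the 3182 genes (0.314%), Cyp7a1 among them.

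Hsd3b7, the dehydrogenase that acts on the ring after the first hydroxylation in both routes, had signals of 3396.0 (negative) and 4749.2 (positive), 1.40-fold higher (log2 ratio 0.48, or 0.57 after loess correction). It held rank 775 from the highest, so that 9.27% of the genes in that order had a ratio as high or higher. Among 875 genes with a mean signal within 1.5-fold of its own, 2.86% did. Hsd3b7 has 1 probe set, 1416968_a_at. Its ratio is a little above the SD of 0.42 between probe sets of a gene. Over genes whose dimmer probe set read 1000 or more the SD was 0.33, which the ratio exceeds by more.

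Cyp8b1, the hydroxylase that directs synthesis towards cholic acid, read 2249.6 and 2593.6, 1.15-fold higher (log2 ratio 0.21, or 0.26 after loess correction). Akr1d1, the reductase that bends the steroid ring system, read 3382.7 and 3555.5 in probe set 1455100_at (log2 ratio 0.07, or 0.15 after loess correction) and 1358.0 and 1617.4 in probe set 1425771_at (log2 ratio 0.25, or 0.27). Both are smaller than the SD between probe sets of a gene. The SD between probe sets covers technical error only, so it does not show whether the Cyp7a1 ratio exceeds the variation between samples.

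In the alternative pathways, Cyp27a1, the mitochondrial sterol hydroxylase that starts the acidic route and also oxidises the side chain in the classic route, gave readings that did not agree. Its brightest probe set, 1457665_x_at, read 9897.4 in negative and 9710.3 in positive hepatocytes (log2 ratio -0.03, or 0.09 after loess correction). Probe set 1417590_at read 5113.9 and 8437.5, 1.65-fold higher (log2 ratio 0.72, or 0.83 after loess correction). The gap of 0.75 between them was matched or exceeded in 8.39% of the 3182 genes, and the _x_ in the name of the first marks probes that may also match other transcripts. A direction for Cyp27a1 cannot be given from these 2 arrays.

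Cyp7b1, which hydroxylates oxysterols made by Cyp27a1, was nearly equal in both arrays. Probe set 1421075_s_at read 20916.0 and 18769.4 (log2 ratio -0.16), and probe set 1421074_at read 8520.3 and 7901.0 (log2 ratio -0.11). After loess correction the ratios were -0.03 and 0.0017. A further probe set, 1446995_at, lay below the floor in both arrays at 75.7 and 120.2.

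Cyp39a1, a hydroxylase of the oxysterol that the brain releases, lay at the floor. It read 347.9 in negative hepatocytes, 1.38 times the floor, and 235.2 in positive hepatocytes, below it. Its ratio has only a bound, at least 1.04-fold lower, and the deposited signals without a floor give a log2 ratio of -0.56.

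The enzymes that finish the molecule read lower by small amounts. Slc27a5, which activates bile acids with coenzyme A, had signals of 17672.5 (negative) and 14243.7 (positive), 1.24-fold lower (log2 ratio -0.31, or -0.19 after loess correction). Amacr, the racemase that prepares the side chain for peroxisomal shortening, read 5855.4 and 5206.4 (log2 ratio -0.17, or -0.07 after loess correction). Baat, which couples bile acids to taurine or glycine, read 5462.9 and 4192.3 in probe set 1419002_s_at, 1.30-fold lower (log2 ratio -0.38, or -0.29 after loess correction). Its probe set 1419001_at read 2691.5 and 2606.1 (log2 ratio -0.05), and loess correction turned that ratio to 0.015. The SD of 0.33 between probe sets that read 1000 or more was exceeded by the -0.38 of Baat as deposited, and not after loess correction or by the other ratios of these 3 enzymes.

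**Figure D2:**
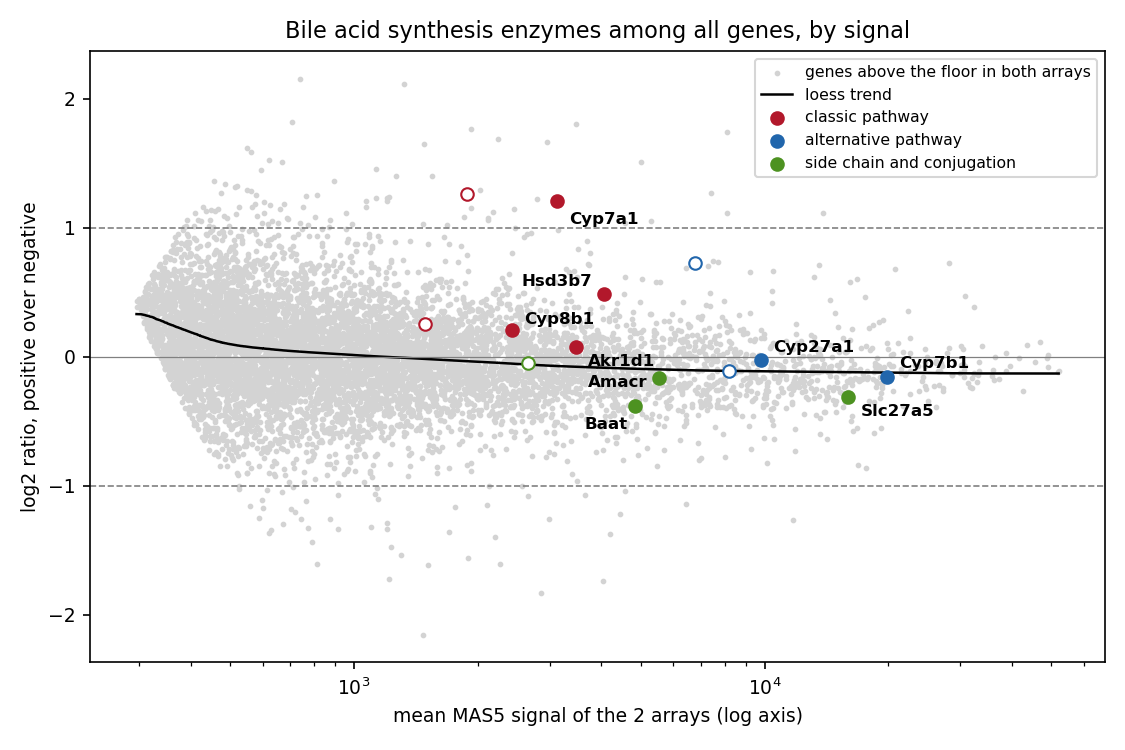
Log2 ratio of positive over negative against the mean signal of the 2 arrays (log axis) for 8362 genes above the floor in both (grey), with the loess trend (black) and the enzymes in colour, filled for the brightest and open for other probe sets; dashed lines mark 2-fold. Cyp7a1 lies beyond 2-fold in both probe sets (1.21 and 1.26), and Cyp7b1 and Amacr lie near the trend line.

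Other genes of bile acid synthesis lay on both sides, with log2 ratios from -0.44 to 0.29. Of 11, 5 read higher and 5 lower, and 1 (Ch25h, a cholesterol hydroxylase) had no ratio on either side, with 0 at 2-fold and a median of 0.00. The highest were the steroid reductases Akr1c6 (17561.4 and 21402.3, log2 ratio 0.29) and Akr1c14 (0.16), and the lowest were the peroxisomal oxidase of the side chain, Acox2 (5242.6 and 3873.0, log2 ratio -0.44), and the thioesterase Acot8 (-0.40). Cyp2c70, which makes the muricholic acids of mice, read 23534.3 and 21810.2 (-0.11).

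Regulators of the pathway showed no common side. Of 16 above the floor in at least 1 array, 6 read higher and 10 lower, with 0 at 2-fold and a median of -0.03, and when the probe sets of a gene were averaged the counts were 10 higher and 6 lower. The bile acid receptor Nr1h4 read 2646.3 and 2277.8 (log2 ratio -0.22), and its target Nr0b2, which represses Cyp7a1, read 2260.8 and 2094.6 (-0.11). Nr5a2, the LRH-1 receptor whose site appears in the Cyp8b1 window, gave -0.14, -0.06, -0.42 and 0.28 in 4 probe sets, and Hnf4a gave -0.32, -0.09, 0.12 and 0.62, so neither has a settled side. The highest were the xenobiotic receptors Nr1i2 (416.8 and 736.3, log2 ratio 0.82, and 0.49 in a further probe set) and Nr1i3 (0.61).

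The lowest regulators were the liver factor Foxa2 (667.3 and 413.3, log2 ratio -0.69) and Klb, the co-receptor for the gut hormone FGF15 (1036.1 and 705.9, log2 ratio -0.55). A dim second probe set of Klb pointed the other way, with a bound of 0.48. Fgfr4, the receptor that works with Klb to repress Cyp7a1, read 817.4 and 824.2 in its brightest probe set (0.01), with 0.17, 0.25 and 0.60 in 3 dimmer ones. Fgf15 itself, made in the intestine, lay below the floor at 12.5 and 16.8.

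Of 16 genes above the floor that were listed for transport of bile acids and sterols, 7 read higher and 9 lower. None was at 2-fold, and the median was -0.06 (0.06 after loess correction). The list also holds the epoxide hydrolase Ephx1 (-0.02), the binding protein Fabp1 (-0.11) and the phospholipid transporters Abcb4 (-0.10) and Atp8b1 (-0.10), all counted as lower. The organic anion importer Slco1b2 was highest (10325.3 and 16887.6, log2 ratio 0.71) and read higher in all 5 of its probe sets (0.29 to 1.44). Abcc3, an exporter towards the blood, followed at 0.30. The lowest were Slco2b1 (-0.63, but 0.03 in a further probe set) and the canalicular bile salt export pump Abcb11 (4704.2 and 3527.8, log2 ratio -0.42). The main sodium-dependent importer Slc10a1 read 10430.1 and 8210.7 (-0.35). Genes that make, take up or move the cholesterol substrate had a median of -0.19 over 13 genes (4 higher, 9 lower, 0 at 2-fold). After loess correction that median was -0.11, with 5 higher and 8 lower. The deposited ratios ran from the sterol carrier Stard4 (4836.3 and 3206.4, log2 ratio -0.59) and the cyclase Lss (-0.37) to Stard5 (0.18) and the lysosomal transporter Npc1 (0.21).

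**Figure D3:**
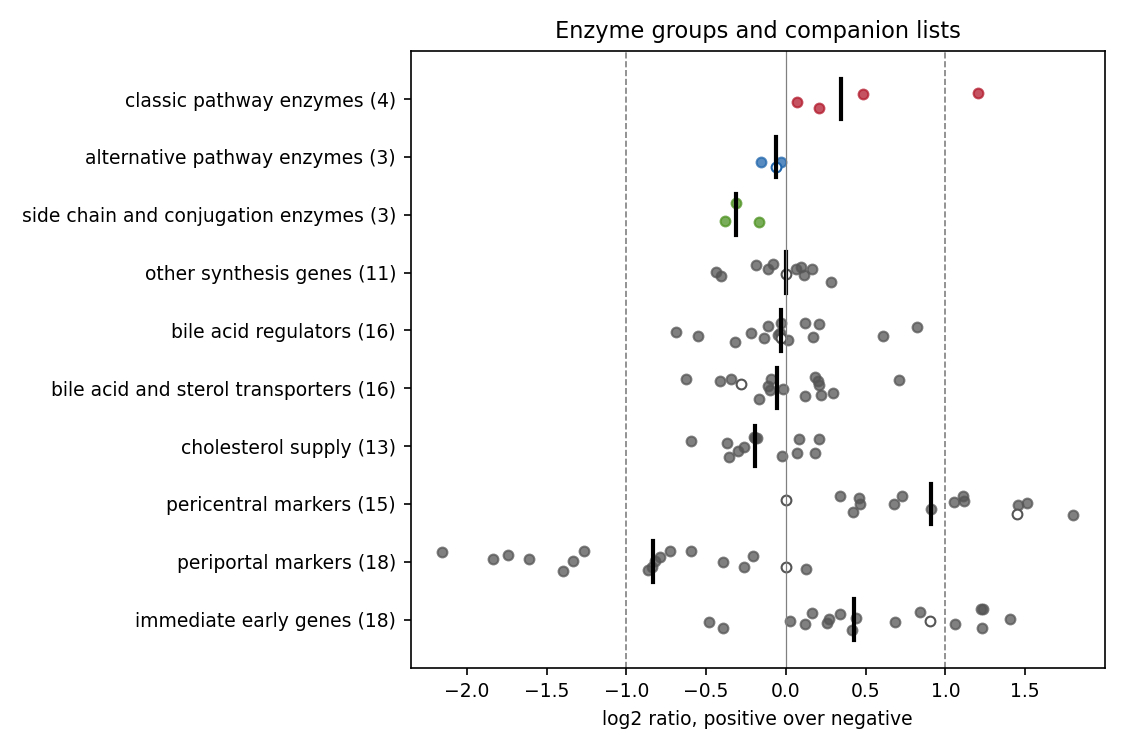
Log2 ratios of positive over negative for the enzyme groups and companion lists, 1 point per gene above the floor in at least 1 array (number in brackets), open where the gene exceeded the floor in 1 array only; black bars are medians and dashed lines mark 2-fold. Of the enzymes only Cyp7a1 passes 2-fold, as 0 genes of the regulator, transporter and cholesterol lists do, while 7 genes each of the pericentral and periportal lists pass it, on opposite sides.

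Markers of lobule position differed between the arrays together with Cyp7a1, which is known to be expressed most around the central vein. Of 15 pericentral markers above the floor, none of them a bile acid enzyme, 14 read higher and 0 lower, with a median of 0.91 and 7 at 2-fold: Gulo (log2 ratio 1.80), Lect2 (1.51), Tbx3 (1.46), Rnf43 (a bound of 1.45), Glul (1.11), Cyp1a2 (1.11) and Oat (1.05). Of these 7, Tbx3 had further probe sets under 2-fold (0.91 and a bound of 0.67), and Glul had a further one over it (1.41). The lowest of the list measured in both arrays were Aldh1a1 (0.34) and Rhbg (0.42). The ratio of Cyp7a1, 1.21, lay within the range of this list (0.00 to 1.80). It also lay within that of the immediate early genes given below (-0.48 to 1.40). The summed signal of the pericentral list was 93652 in negative and 153168 in positive hepatocytes.

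Periportal markers, of hepatocytes near the portal vein, read lower in 16 of 18 genes and higher in 1 (Ass1, 0.13), with a median of -0.83 and 7 at 2-fold: Aldh1b1 (-2.15), Hal (-1.84), Etnppl (-1.74), Ctsc (-1.61), Cdh1 (-1.40), Hsd17b13 (-1.33) and Pigr (-1.27). Further probe sets of 3 of these 7 were under 2-fold, with -0.97 for Pigr, -0.92 for Hsd17b13 and bounds of -0.24 and -0.21 for Ctsc. Igf1 was the next highest (-0.21). Their summed signal was 233247 and 150800. Immediate early genes, which respond to stress and cell isolation, read higher in 16 of 18 genes and lower in 2 (Klf2, -0.48, and Socs3, -0.39), with a median of 0.43, summed signals of 55419.7 and 76959.7, and 5 at 2-fold: Maff (1.40), Klf6 (1.24), Ier2 (1.23), Atf3 (1.22) and Btg2 (1.06). The part of zonal position, cell isolation or diet in the Cyp7a1 reading was not tested, and in sorted bulk RNA more cells of a type and more RNA per cell cannot be told apart.

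Markers of the labelled cell type were bright. All 10 hepatocyte markers were far above the floor, from 11717.9 up, with summed signals of 341241 and 312863 and log2 ratios from -0.39 (Cps1) and -0.37 (Tdo2) to 0.03 (Apob) and 0.06 (Ahsg). All 6 cholangiocyte markers, Krt19 and Epcam among them, lay below the floor in both arrays (summed signals 556.6 and 771.3). Kupffer cell markers exceeded it in 4 of 10 genes (summed 3411.9 and 2559.2), with ratios of -0.66 (C1qb), -0.10 (Clec4f) and 0.33 (Csf1r). Sinusoidal endothelial markers exceeded it in 7 of 9 (summed 4130.7 and 4716.4, median 0.18), from Oit3 (-0.19) and Stab2 (0.11) to Fcgr2b (0.35, but -0.36 and -0.32 in 2 further probe sets) and Cdh5 (0.84), and stellate cell markers in 7 of 9 (3719.2 and 3404.7, median -0.18), from Rgs5 (-0.79) and Dcn (-0.38) to Lrat (0.39) and Col1a1 (0.41). Of 7 lymphocyte and red cell markers, 2 exceeded it, 1 of them (Alas2, 0.09) in both arrays (summed 1593.1 and 1319.8). No marker had a signal of 0. The ezrin gene Ezr could not check the sort: its probe sets lay below the floor, at 135.3 and 15.7 and at 7.6 and 13.6. As a check of RNA quality, 3′ over 5′ signal was 0.970 (negative) and 0.864 (positive) for Actb, and for Gapdh it was 3.46 and 3.13. The 2 genes did not agree, so this check does not settle RNA quality.

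**Figure D4:**
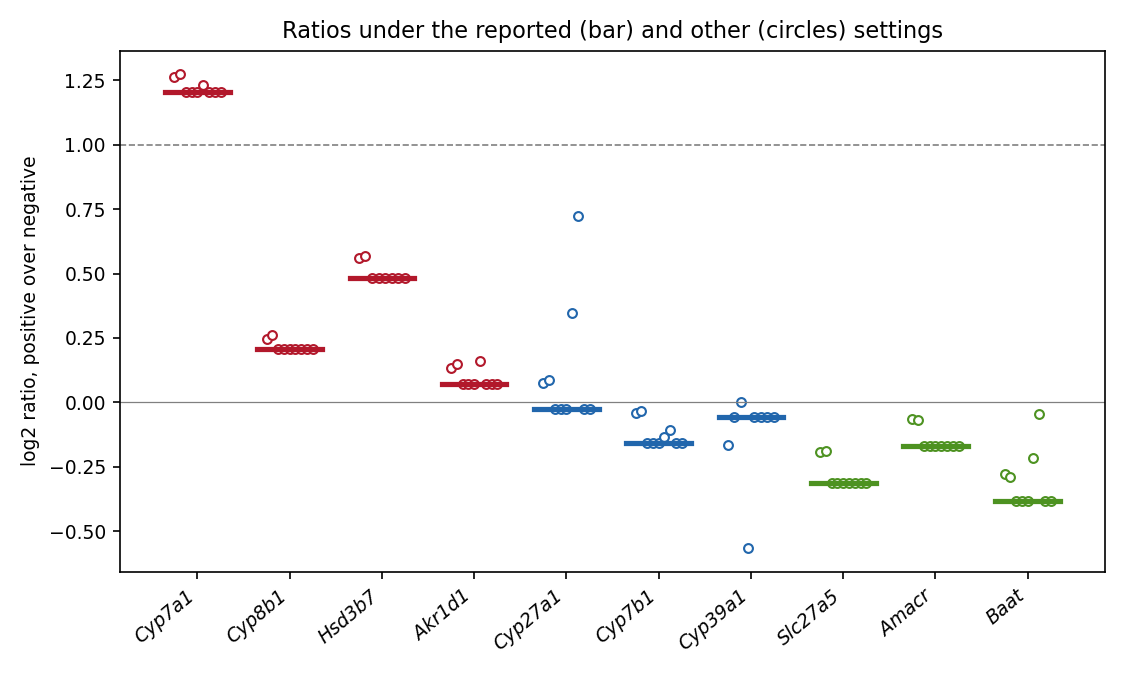
Log2 ratio of positive over negative for each enzyme as reported (bar) and under up to 9 other settings of normalization, floor and choice of probe set (circles); red, blue and green mark the classic, alternative and finishing enzymes, and the dashed line marks 2-fold. Cyp7a1 stays between 1.21 and 1.27, while Cyp27a1 spans -0.03 to 0.72 and Cyp39a1 -0.56 to 0.00. Settings of floor and bounds could not change Cyp7a1 or Cyp27a1, whose signals stood far above the floors.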

How the data were processed

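RNA of EzrinT567D-negative and EzrinT567D-positive hepatocytes was measured on 1 Affymetrix Mouse Genome 430 2.0 array each, from 6 µg of total RNA per the labels' protocols. The deposited values are linear intensities that MAS5 made, per the submitters' processing notes; the labels state no version, scaling target or detection calls, and both arrays had a 2% trimmed mean of 500.0. Such scaling cannot show a shift of all transcripts. Gene symbols came from the platform annotation: of 45101 probe sets, 34945 carried 1 symbol, 932 several, and 64 were controls. The labels name no genome build.

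From these values log2 ratios were computed per probe set (Python 3.11.15, pandas 2.3.3), with the brightest probe set, by mean signal, standing for its gene. Where a gene exceeded the floor in 1 array, the dim signal was raised to its floor. The ratio was set to 0 where the raised signal was above the signal of the array that passed. Of 18193 genes, 8362 passed both floors and 1816 passed 1 of them, which makes 10178 with a ratio or a bound. Genes were counted at 2-fold (log2 ratio 1). The calculation was tested on simulated data. Signals of different genes were summed within lists, and no ratio between different genes was computed. The alternatives were quantile normalization, loess correction (statsmodels 0.14.6, span 0.4), other floors, other treatments of bounds and other choices of probe set.

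Named were all members with every probe set and, of the other 13 lists, each gene at 2-fold and the 2 highest and 2 lowest above the floor in both arrays. Further genes, among them Cyp2c70, Ch25h, Nr1h4, Nr0b2, Nr5a2, Hnf4a, Fgfr4, Fgf15 and Slc10a1, were named after their values were seen, for their roles. The members and lists were chosen with earlier results of these data known.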

Additional observations from a re-analysis of the deposited data

How the results depend on the processing

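No paired analysis was possible because each group has 1 array. Under 9 alternatives 1 member, Cyp7a1, stayed at least 2-fold higher and 0 members were 2-fold lower. Most of these settings could not change Cyp7a1, because its signals stood far above the floors and its probe sets are not _s_at, _x_at or _a_at. Its ratio differed only under quantile normalization (1.26), loess correction (1.27) and the mean over probe sets (1.23). A value was taken to have moved where it changed by more than the SD of 0.42 between probe sets of a gene: this held for Cyp27a1 when _s_at, _x_at and _a_at probe sets were left out (0.72) and for Cyp39a1 without a floor (-0.56). Leaving them out removes Hsd3b7, whose only probe set is of this kind. Cyp27a1 was above 0 under 4 alternatives and below under 5. The 5 were floor and bound settings, which left its ratio at -0.03. The 4 that changed it were quantile normalization (0.07), loess correction (0.09), the mean over probe sets (0.35) and leaving out _s_at, _x_at and _a_at probe sets (0.72). The other members kept their side, except that Cyp39a1 had no side with the 99th percentile floor and no ratio when both signals had to pass. Over all genes the counts at least 2-fold higher and lower were 136 and 59, but 80 and 46 with the 99th percentile floor, 83 and 59 with 1 common floor, 106 and 38 with the mean over probe sets, and 1628 and 1654 without a floor. With 1 array per group, the number of arrays limits the precision of every ratio.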
